A study of Mus musculus with 9 samples.

Results

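The genes examined here encode the proteasome, its regulators and its assembly factors. They were taken from the array's probe-to-gene table as every gene whose single symbol begins with Psma, Psmb, Psmc, Psmd, Psme, Psmf or Psmg followed by a number. The rule gave 48 of the 12393 genes that had a single-symbol probe set, measured by 85 of 20380 such probe sets, and used no measured value. Of these, 46 encode proteasome subunits, regulators or assembly factors; Psmc3ip, known from meiotic recombination, and Psme3ip1, a partner of the activator Psme3, matched by their symbols alone. The activator Psme2 was not included because its probe set carries 2 symbols. RNA came from wild-type mouse embryos, from the mid-foregut at 16-20 somites (embryonic day 8.5), 21-25 somites (embryonic day 9.0) and 26-30 somites (embryonic day 9.5), with 3 arrays at each stage. Each array held the RNA of 5 to 10 pooled foreguts, cut out between the pharyngeal arches and the liver after the neural tube and heart had been taken off. No allele or treatment separated the stages, and the sources used here give no strain. The comparison asks how RNA levels in the region change with stage.

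The proteasome degrades proteins marked with ubiquitin. Its core particle is a barrel of alpha rings, which gate the entry, around beta rings, which hold the cutting sites. A regulatory particle caps the barrel: its base carries a ring of ATPases and ubiquitin receptors that unfold and feed in the substrate, and its lid removes the ubiquitin chain. Dedicated chaperones build both particles, and in yeast a shared transcription factor keeps the subunits in step; in mammals Nfe2l1 drives many of the subunit genes when proteasome activity is short. Immune cells and interferon-treated cells replace the catalytic beta subunits by the inducible Psmb8, Psmb9 and Psmb10.

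The values are MAS5 signals on a linear scale, 1 per probe set, and a gene is represented by the probe set with its highest mean. On every array the mean signal after trimming 2% at each end was 500.2 to 500.3, so a level is relative to the array. Of the 48 genes, 45 had a mean above the 30th percentile of all genes and were tested; Psma8, Psmb8 and Psmb9 were dimmer and were not. Some features of the arrays bear on the results. On 3 arrays, replicate 1 at 21-25 somites and replicates 1 and 2 at 26-30 somites, the highest signal was 27479.8 to 32583.5, against 43791.6 to 61749.1 on the other 6. Replicate 2 at 16-20 somites had a summed signal of 32924 for the hepatic markers (4 of 5 above the filter) and 15220 for the cardiac markers (8 of 8), against 1218 to 8353 and 1857 to 6421 on the other 8 arrays. The erythroid markers (6 of 6) summed to 36723 to 40447 at 16-20, 18020 to 36321 at 21-25 and 20725 to 57724 at 26-30 somites, and the neural markers (3 of 6) to 250.1 to 594, 436 to 886 and 450.3 to 640. The part of these cells in the proteasome values was not tested. Of the markers of the dissected tissue, 8 of 10 for foregut endoderm and 6 of 9 for its mesenchyme were above the filter, but Nkx2-1 and Shh, and Foxf1, Tbx4 and Osr1, were not. The endoderm markers summed to 9976 to 16511 at 16-20, 8473 to 9314 at 21-25 and 9007 to 10281 at 26-30 somites, with 21-25 somites wholly below 16-20 somites. The bright genes Foxa1, Krt8 and Krt18 led this sum. Only Foxa2 and Krt18 were wholly below on their own, and the other genes of the list overlapped between these stages. Krt18 read 2341, 5459 and 3108 at 16-20 and 1354, 1116 and 1480 at 21-25 somites. Sox2 read 646.5, 182 and 320, then 859, 517 and 508. The mesenchyme markers summed to 3086 to 3631, 2599.8 to 4278 and 4559 to 5174, with 26-30 somites wholly above both other stages. Isl1, the brightest of them at 26-30 somites, read 2272, 2277 and 1712 there, against 1033, 667 and 1219 at 16-20 somites. Tbx5, Bmp4 and Hoxa5 were also wholly higher in that comparison, while the other genes of the list, Gata6 and Wnt2 among them, overlapped. The part of endoderm and mesenchyme cells in the proteasome values was not tested. In pooled tissue, fewer cells of a type and less RNA per cell cannot be told apart.

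At both later stages most proteasome genes had lower signals than at 16-20 somites, and none of the differences passed the test. The median log2 difference of the 45 tested genes was -0.35 at 26-30 against 16-20 somites, where 37 of 45 were below 0, beside a median of 0.01 over all 8675 genes tested, of which 49.2% were below 0. It was -0.40 at 21-25 against 16-20 somites, with 38 of 45 below 0, beside a median of 0.00 and 49.8% below 0 over all genes. Between 26-30 and 21-25 somites the median was 0.05, with 24 of 45 above 0, beside 50.9% over all genes. Without replicate 1 at 21-25 somites this median was -0.099, with 17 of 45 above 0, and with array weights it was -0.09, with 19 above 0. With the mean of all probe sets of each gene, 31 of 45 were below 0 at 26-30 against 16-20 somites, with a median of -0.24. At 21-25 against 16-20 somites that setting gave 33 below 0, with a median of -0.36. Taken one by one, 49 of 69 probe sets were below 0 at 26-30 against 16-20 somites, with a median of -0.26. In limma, with p adjusted over all genes by Benjamini-Hochberg at 0.05, 0 of the 45 were called in any of the 3 comparisons, and 0% of the 8675 genes were called in any of them. The smallest adjusted p of any gene in limma was 0.219, 0.316 and 0.975 for 26-30 against 16-20, 21-25 against 16-20 and 26-30 against 21-25 somites. Unadjusted limma p-values under 0.05 were found for 6, 11 and 2 of the proteasome genes in these comparisons, beside 11.1%, 11.1% and 4.07% of all genes.

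Counted by array, the 3 signals at 26-30 somites were all below the 3 at 16-20 somites for 17 of the 45 genes (37.8%), beside 10.2% of all genes. All 3 at 21-25 somites were below those at 16-20 somites for 14 genes (31.1%), beside 7.3% of all genes; without replicate 1 at 21-25 somites the count was also 14, beside 11.5%. The opposite order was found for 1 proteasome gene, Psmd11, at 26-30 somites, beside 11.2% of all genes, and for 0 at 21-25 somites, beside 6.94%. Between 26-30 and 21-25 somites, Psmc3, Psmd2 and Psmd8 were wholly higher, beside 4.51% of all genes, and Psmb10 was wholly lower, beside 4.84%. Without the 3 arrays of narrow range, 34 of 45 were below 0 at 26-30 against 16-20 somites, with a median of -0.24, and 34 of 45 at 21-25 against 16-20 somites, with a median of -0.22. That setting, here and below, leaves 1 array at 26-30 somites, replicate 3, and 2 at 21-25 somites. Without replicate 2 at 16-20 somites, 37 and 38 of 45 were below 0.

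**Figure D1:**
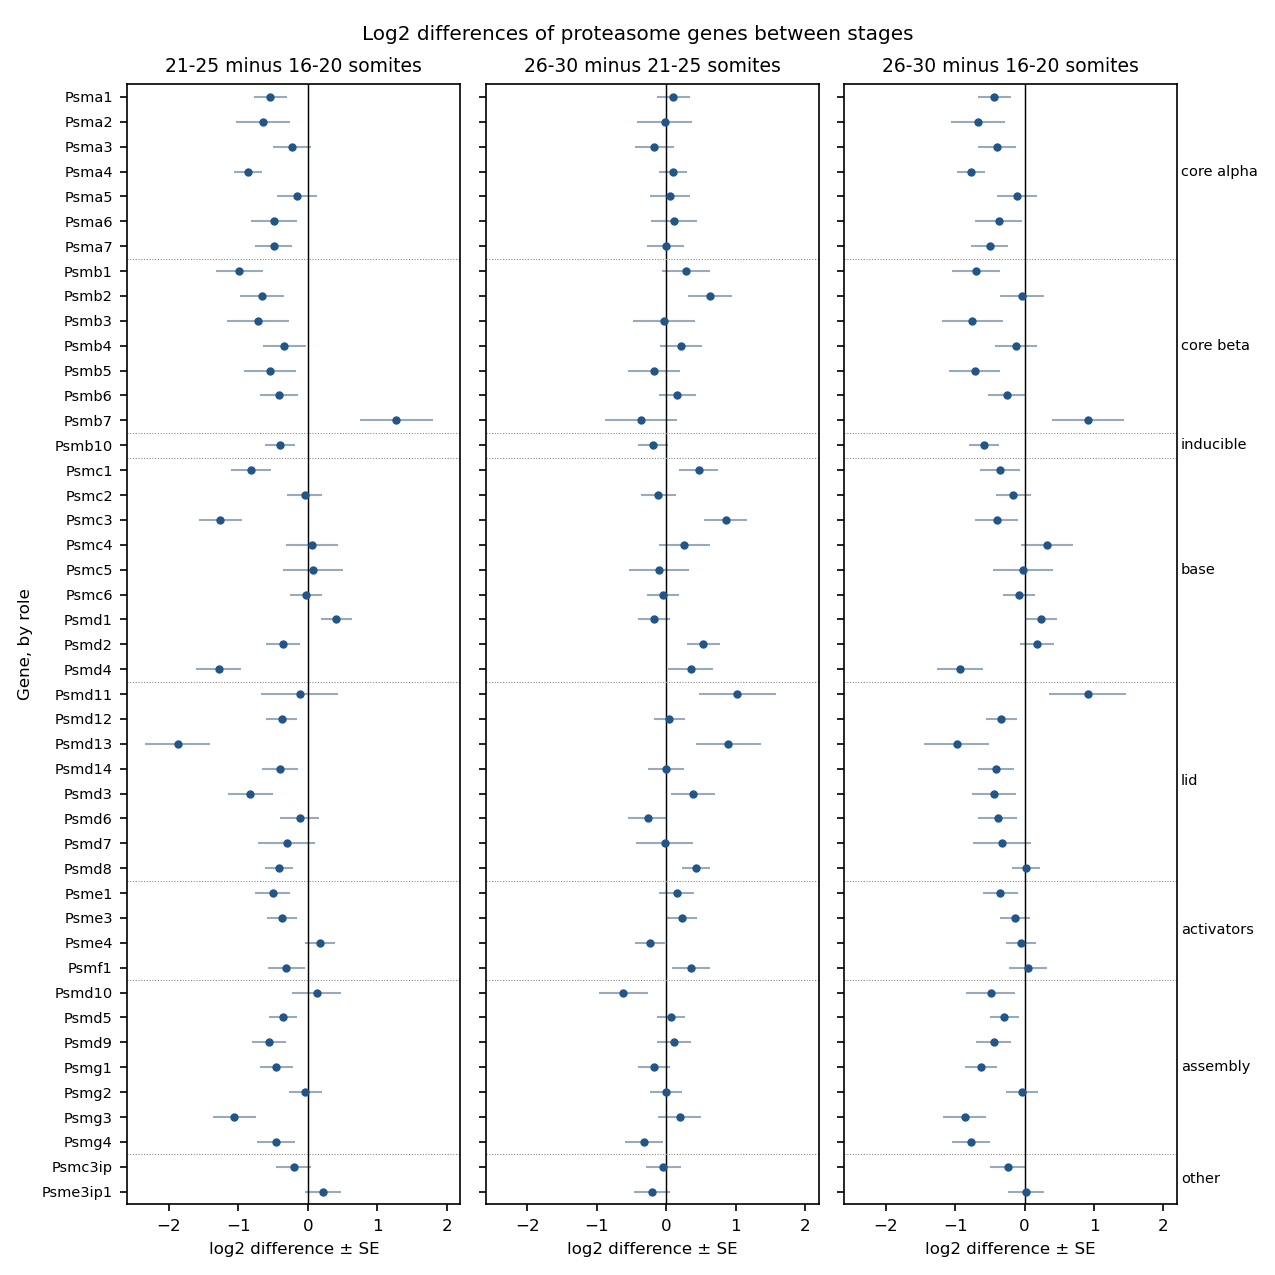
Log2 differences of the 45 tested proteasome genes, with SE bars from the limma fit, for 21-25 minus 16-20, 26-30 minus 21-25 and 26-30 minus 16-20 somites; genes run down the page by role, and the group labelled activators includes the inhibitor Psmf1. Most points of the left and right panels lie left of 0 (38 and 37 of 45), while those of the middle panel lie on both sides (24 above 0).

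The direction was not tied to one range of signal. Among the 19 proteasome genes with a mean log2 signal of 11 or more, the median difference at 26-30 against 16-20 somites was -0.38, beside -0.01 for all 1215 genes in that range. The 18 genes between 9 and 11 had a median of -0.27, beside 0.05 for 2548 genes. The 8 genes below 9 had a median of -0.40, beside -0.01 for 4912 genes.

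The alpha subunits of the core, Psma1 to Psma7, shared one direction. All 7 were below 0 at 21-25 against 16-20 somites, their median log2 difference being -0.49 with a range of -0.86 to -0.16, and all 7 were below 0 at 26-30 against 16-20 somites, the median being -0.44 with a range of -0.77 to -0.10. Between 26-30 and 21-25 somites they lay between -0.17 and 0.11. These values are of the probe sets tested. Further probe sets of Psma6 above the filter had 0.27 and -0.20 at 21-25 against 16-20 somites. Psma4, a subunit of the alpha ring, read 2308, 2532 and 2758 at 16-20 somites, 1171, 1435 and 1554 at 21-25 somites, and 1589, 1443 and 1386 at 26-30 somites. Every signal at the later stages lay below every signal at 16-20 somites, and the 2 later stages overlapped each other. The log2 difference of Psma4 was -0.77 ± 0.20 (SE) at 26-30 against 16-20 somites, with an adjusted p of 0.317 in limma, and -0.86 ± 0.20 at 21-25 against 16-20 somites, with an adjusted p of 0.316. Psma1 averaged 3866 ± 792 at 26-30 somites and 5188 ± 476 at 16-20 somites (SD, n = 3 each), with no overlap. Psma2 read 1627, 5324 and 4725 at 21-25 somites, so that 2 of its 3 signals lay near those at 16-20 somites (5936, 5238 and 5125) and the first far below them. That first array at 21-25 somites held the lowest of the 9 signals for all 7 alpha subunits. Psma8, which replaces Psma7 in germ cells, had signals of 43.7 to 71.9 on the 9 arrays and was not tested.

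Of the 7 constitutive beta subunits, 6 were below 0 at both later stages against 16-20 somites, and Psmb7 was above 0. Their median was -0.54 at 21-25 against 16-20 somites and -0.25 at 26-30 against 16-20 somites. The 3 catalytic subunits differed from one another. Psmb5, which carries the chymotrypsin-like site, read 5739, 6621 and 8688 at 16-20 somites, 2331, 8100.2 and 5641 at 21-25 somites, and 4248, 3599 and 4781 at 26-30 somites. All 3 signals at 26-30 somites were below those at 16-20 somites, while the signals at 21-25 somites overlapped both other stages. Its log2 difference at 26-30 against 16-20 somites was -0.72 ± 0.37 (SE), with an adjusted p of 0.474 in limma. Psmb6, which carries the caspase-like site, read 5044, 5487 and 5676 at 16-20 somites, 2836, 6435 and 3607 at 21-25 somites, and 4887, 4538 and 4174 at 26-30 somites. The signals at 26-30 somites lay just below those at 16-20 somites without overlap, and the log2 difference was -0.25 ± 0.27, adjusted p 0.745 in limma.

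Psmb7, which carries the trypsin-like site, read 355, 161 and 1047 at 16-20 somites, 1074, 922 and 1018 at 21-25 somites, and 1126, 954 and 422 at 26-30 somites. Its 2 low signals at 16-20 somites stood apart from replicate 3, which lay among those at 21-25 somites, and the groups overlapped. The log2 difference was 1.28 ± 0.52 (SE) at 21-25 against 16-20 somites and 0.91 ± 0.52 at 26-30 against 16-20 somites, with adjusted p of 0.422 and 0.516 in limma. Without replicate 3 at 16-20 somites the value at 21-25 against 16-20 somites was 1.95, and without replicate 2 at 16-20 somites it was 0.69. The value at 26-30 against 16-20 somites was 1.58 and 0.32 without these arrays in turn. It was 0.0769 without the 3 arrays of narrow range, with 1 array left at 26-30 somites. Among the structural beta subunits, Psmb1 had a log2 difference of -0.70 ± 0.34 (SE) and Psmb3 of -0.75 ± 0.44 at 26-30 against 16-20 somites, and Psmb2 and Psmb4 had -0.04 and -0.12. A second probe set of Psmb4 had 0.75 in the same comparison, the opposite sign.

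The inducible beta subunits were dim. Psmb8, the counterpart of Psmb5, had signals of 5.3 to 30.1 on the 9 arrays, and Psmb9, the counterpart of Psmb6, had 14.9 to 70.6. Both were below the filter, so no difference is given. Psmb10, the counterpart of Psmb7, read 188, 174 and 171 at 16-20 somites, 130.1, 124 and 132 at 21-25 somites, and 123, 91.2 and 116 at 26-30 somites. The 3 stages of Psmb10 did not overlap, with 16-20 somites highest and 26-30 somites lowest, the later pair by a narrow margin. Its log2 difference was -0.59 ± 0.21 (SE) at 26-30 against 16-20 somites, with an adjusted p of 0.371 in limma, and -0.40 and -0.19 in the 2 steps. Of 8 immune cell markers, 6 were below the filter, and their summed signal was 475.8 to 823.6 at 16-20, 653.9 to 931.2 at 21-25 and 634 to 856.2 at 26-30 somites; the part of such cells in the Psmb10 values was not tested.

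**Figure D2:**
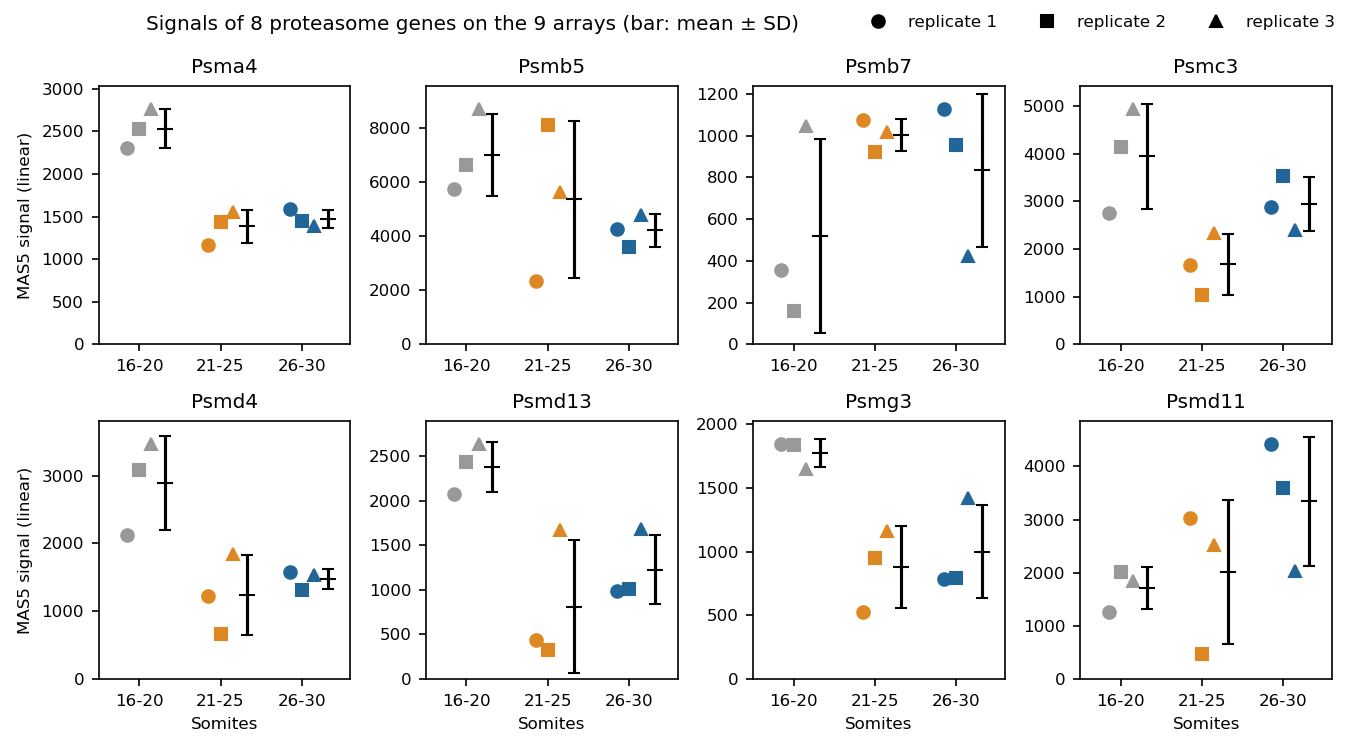
MAS5 signals (linear axes from 0) of Psma4, Psmb5, Psmb7, Psmc3, Psmd4, Psmd13, Psmg3 and Psmd11 by somite stage; circles, squares and triangles are replicates 1, 2 and 3, and black bars are the mean ± SD of 3 arrays. Psma4, Psmd4, Psmd13 and Psmg3 are lower on all arrays of both later stages than at 16-20 somites, while Psmb7 overlaps between all stages and Psmd11 is higher at 26-30 than at 16-20 somites on the probe set shown.

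The base of the regulatory particle had members on both sides of 0. Its 9 members showed median log2 differences of -0.05 at 21-25 against 16-20 somites (6 below 0) and -0.08 at 26-30 against 16-20 somites (6 below 0). Psmd4, the receptor that binds ubiquitin chains at the base, read 2121, 3088 and 3461 at 16-20 somites, 1226, 663 and 1844 at 21-25 somites, and 1579.8, 1314 and 1532 at 26-30 somites. All 6 later signals were below the 3 at 16-20 somites. The log2 difference was -1.28 ± 0.33 (SE) at 21-25 and -0.93 ± 0.33 at 26-30 somites, each against 16-20 somites, with adjusted p of 0.316 and 0.363 in limma. A second, dimmer probe set of Psmd4 had -0.51 and 0.03 in these comparisons, so the sets did not share a sign at 26-30 somites.

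Psmc3, an ATPase of the base, read 2764, 4148 and 4930.1 at 16-20 somites, 1661, 1036 and 2328 at 21-25 somites, and 2875, 3532 and 2402 at 26-30 somites. Its signals at 21-25 somites lay below those of both other stages, which overlapped each other. The log2 difference was -1.26 ± 0.31 (SE) at 21-25 against 16-20 somites, adjusted p 0.316 in limma, and 0.86 ± 0.31 at 26-30 against 21-25 somites, adjusted p 0.998, or 0.55 without replicate 2 at 21-25 somites. Another ATPase, Psmc1, had values of the same signs, -0.82 ± 0.29 and 0.47 ± 0.29. Psmc4, also an ATPase, read 3217, 1572 and 968 at 16-20 somites, 1369, 2367 and 1716 at 21-25 somites, and 2546, 2099 and 1809 at 26-30 somites. Its widest spread was among the arrays at 16-20 somites, which overlapped both other stages, and its log2 difference at 26-30 against 16-20 somites was 0.32 ± 0.37 (SE), or -0.08 without replicate 3 at 16-20 somites. The other ATPases Psmc2, Psmc5 and Psmc6 lay between -0.16 and 0.08 in the comparisons with 16-20 somites, and 2 further probe sets of Psmc6 had 0.77 and 0.44 at 26-30 against 16-20 somites where the one tested had -0.08.

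The scaffolds of the base, Psmd1 and Psmd2, hold the base together and dock other factors. Psmd1 read 429.5, 424 and 522 at 16-20 somites, 825, 522 and 543 at 21-25 somites, and 533, 583 and 512 at 26-30 somites. Its highest signal came from replicate 1 at 21-25 somites, and the stages overlapped. The log2 difference of Psmd1 at 21-25 against 16-20 somites was 0.41 ± 0.23 (SE), adjusted p 0.523 in limma, and 0.21 without replicate 1 at 21-25 somites. Psmd2 averaged 4856 ± 367 at 26-30 somites and 3385 ± 688 at 21-25 somites (SD, n = 3 each), wholly apart, with a log2 difference of 0.54 ± 0.24 and an adjusted p of 0.998 in limma.

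At 21-25 against 16-20 somites all 8 lid subunits were below 0 on the probe sets tested and their median log2 difference was -0.39. At 26-30 against 16-20 somites 6 of the 8 were below 0 and the median was -0.36. A further probe set of Psmd6 had 0.05 at 21-25 against 16-20 somites, and the further ones of Psmd11 above the filter had 0.03 and -0.26. Psmd13, a structural subunit of the lid, had the largest difference of any proteasome gene. It read 2077, 2429 and 2632 at 16-20 somites, 439, 326 and 1673 at 21-25 somites, and 988, 1014 and 1677 at 26-30 somites. All later signals lay below those at 16-20 somites, and at 21-25 somites replicate 3 stood far above the other two. The log2 difference was -1.87 ± 0.47 (SE) at 21-25 against 16-20 somites, adjusted p 0.316 in limma, and -0.98 ± 0.47 at 26-30 against 16-20 somites, adjusted p 0.454. Without replicate 3 at 21-25 somites the value at 21-25 against 16-20 somites was -2.56, with an adjusted p of 0.0118 in limma, and Psmd13 was then 1 of 3 genes called (0.0346% of 8675). Without replicates 1 and 2 at 21-25 somites it was -0.49, with an adjusted p of 0.999 in limma. A second probe set of Psmd13 had -0.89 at 21-25 and -0.26 at 26-30 somites, each against 16-20 somites. On the probe set tested, the value at 26-30 against 16-20 somites was -0.49 without the 3 arrays of narrow range, with 1 array left at 26-30 somites.

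Psmd11, a lid subunit that steadies the contact with the core, read 1269, 2021 and 1849 at 16-20 somites, 3038, 477 and 2523 at 21-25 somites, and 4416, 3588 and 2026 at 26-30 somites. The signals at 26-30 somites were above those at 16-20 somites by a narrow margin at the lower end, and at 21-25 somites replicate 2 was the lowest of the 9. Its log2 difference was 0.91 ± 0.56 (SE) at 26-30 against 16-20 somites and 1.02 ± 0.56 at 26-30 against 21-25 somites, with adjusted p of 0.542 and 0.998 in limma. Without replicate 2 at 21-25 somites the value at 26-30 against 21-25 somites was 0.20, and with the mean of probe sets 0.11. At 26-30 against 16-20 somites the mean of probe sets gave 0.0622. The fit without the narrow-range arrays, with 1 array left at 26-30 somites, gave 0.27. The other probe sets of Psmd11 above the filter had -0.30 and 0.12 at 26-30 against 16-20 somites. Psmd14, the deubiquitinase of the lid, averaged 8809 ± 922 at 26-30 somites and 11772 ± 1991 at 16-20 somites (SD, n = 3 each), a log2 difference of -0.41 ± 0.26 (SE) with overlapping signals. Psmd8 averaged 709 ± 82.1 at 16-20, 525 ± 35.9 at 21-25 and 718 ± 48.8 at 26-30 somites (SD, n = 3 each), the signals at 21-25 somites lying below both others. The remaining lid subunits Psmd3, Psmd6, Psmd7 and Psmd12 had -0.44 to -0.33 at 26-30 against 16-20 somites.

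The 3 activators measured and the inhibitor Psmf1 had log2 differences between -0.35 and 0.05 at 26-30 against 16-20 somites. Psme1, part of the interferon-responsive activator ring, read 190.4, 308 and 248 at 16-20 somites, 165, 141 and 192 at 21-25 somites, and 193, 229 and 144 at 26-30 somites. The stages overlapped, with 16-20 somites reaching highest, and the log2 difference at 26-30 against 16-20 somites was -0.35 ± 0.25 (SE), adjusted p 0.595 in limma. It was -0.19 without replicate 3 at 26-30 somites and -0.20 without replicate 2 at 16-20 somites. Without the narrow-range arrays, with 1 array left at 26-30 somites, it was -0.67. Psme3, the nuclear activator, read 563, 496 and 476 at 16-20 somites, 378, 322 and 487 at 21-25 somites, and 477, 471 and 432 at 26-30 somites. Its stages overlapped and its log2 difference in that comparison was -0.14 ± 0.22, or -0.0767 without replicate 1 at 16-20 somites. Psme4, the single-chain activator known for the degradation of acetylated histones in the testis, read 5302, 3739 and 3999.9 at 16-20 somites, 5307, 4405 and 4939 at 21-25 somites, and 4504, 4408 and 3561 at 26-30 somites, and all stages overlapped. Psme4 had a log2 difference of -0.05 ± 0.21 and the inhibitor Psmf1 of 0.05 ± 0.27.

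On the probe sets tested, all 7 assembly chaperones were below 0 at 26-30 against 16-20 somites, the median log2 difference being -0.49. Of the 7, 5 were wholly below on the arrays, beside 10.2% of all genes. Second probe sets of Psmg2 and Psmd9, given below, were above 0. Psmg3, which helps to form the alpha ring, read 1842, 1839.8 and 1649 at 16-20 somites, 527, 951 and 1162 at 21-25 somites, and 787, 795 and 1419.6 at 26-30 somites. Every later signal was below those at 16-20 somites, and the log2 difference was -0.87 ± 0.31 (SE) at 26-30 and -1.06 ± 0.31 at 21-25 somites, each against 16-20 somites, with adjusted p of 0.363 and 0.316 in limma. Without the 3 arrays of narrow range, with 1 array left at 26-30 somites, the value of Psmg3 at 26-30 against 16-20 somites was -0.32. Psmg4, its partner, read 476, 441 and 503 at 16-20 somites, 212, 508 and 348 at 21-25 somites, and 262, 251 and 281 at 26-30 somites. The signals at 26-30 somites were close to each other and wholly below those at 16-20 somites, while 21-25 somites spanned both, and the log2 difference was -0.78 ± 0.27, adjusted p 0.363 in limma.

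Psmg1, which works with Psmg2 on the alpha ring, read 1848, 2193 and 1708 at 16-20 somites, 1054, 1487 and 1696 at 21-25 somites, and 1156, 1092 and 1446 at 26-30 somites. Both later stages lay below 16-20 somites, at 21-25 somites by a narrow margin, and the log2 difference at 26-30 against 16-20 somites was -0.63 ± 0.24 (SE), adjusted p 0.372 in limma. It was -0.39 without the 3 arrays of narrow range, with 1 array left at 26-30 somites. Psmg2, the partner of Psmg1, had -0.04 ± 0.23 in the same comparison, where a second, dimmer probe set of Psmg2 had 0.61. Psmd10, which escorts an ATPase into the base, read 254, 147 and 131 at 16-20 somites, 109.9, 287 and 208 at 21-25 somites, and 112, 78.3 and 164 at 26-30 somites. All its stages overlapped, and its log2 difference of -0.62 ± 0.35 at 26-30 against 21-25 somites was the lowest of any proteasome gene in that step. It was -0.95 without replicate 1 and -0.35 without replicate 2 at 21-25 somites. The base chaperones Psmd5 and Psmd9 had -0.29 and -0.45 at 26-30 against 16-20 somites, both wholly below. A second, dimmer probe set of Psmd9 had 0.02 in that comparison. Of the genes matched by symbol alone, Psme3ip1 read 994, 804 and 630.2 at 16-20 somites, 817, 1169.9 and 844 at 21-25 somites, and 636, 784 and 1049 at 26-30 somites. Its stages overlapped, with log2 differences of 0.22 ± 0.26 at 21-25 and 0.02 ± 0.26 at 26-30 somites, each against 16-20 somites. The first was 0.0575 without replicate 3 and 0.38 without replicate 1 at 16-20 somites, and 0.0597 without replicate 2 at 21-25 somites. Psmc3ip had -0.24 ± 0.25 at 26-30 against 16-20 somites.

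At 21-25 somites the core was low on replicate 1, and the base and lid were low on replicates 1 and 2. Set against each gene's own mean over the 9 arrays, the 14 core subunits had a median of -0.67 on replicate 1, 0.27 on replicate 2 and 0.17 on replicate 3, on the log2 scale. The 17 base and lid subunits had -0.31, -0.53 and 0.07 on the same arrays, with 13 of 17 below their own mean on both replicate 1 and replicate 2. The difference between core and regulatory particle was not tested. Replicate 1 held the lowest of the 9 signals for 12 of the 14 core subunits and for 1 of the 17 base and lid subunits, beside 13.2% of all genes. Replicate 2 held the lowest for 1 of the 14 and for 9 of the 17, beside 21.1% of all genes. Replicate 2 also had the highest ratio of 3′ to 5′ signal for actin, 45.3 against 20.9 to 36.8 on the other 8 arrays, and a ratio for GAPDH of 36.4, against 16.0 to 40.9 on the others. All 9 arrays had ratios of 16.0 or more, from RNA that passed through 2 rounds of amplification. A high ratio is a sign that the measured strands were short, and neither its source nor its part in these values was tested. At 16-20 somites the medians of the core were 0.32, 0.30 and 0.33, and at 26-30 somites they were -0.13, -0.30 and 0.10. Low medians on replicate 1 were found in other lists too: -0.70 for 44 cytosolic ribosomal protein genes, -0.70 for 76 respiratory chain genes (47 of them lowest there), -0.42 for the 8 subunits of the chaperonin CCT (6 lowest there) and -0.48 for the 7 assembly chaperones (5 lowest there). The 3 arrays of narrow range were also those with the 3 lowest core medians, and the part of that range in the core values was not tested beyond the fits without these arrays. Replicate 1 decides much of the core's value at 21-25 against 16-20 somites. The median log2 difference of the 14 core subunits there was -0.52, and without replicate 1 it was -0.13, with 10 of 14 below 0. For the 17 base and lid subunits it was -0.36, and -0.26 without replicate 2.

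**Figure D3:**
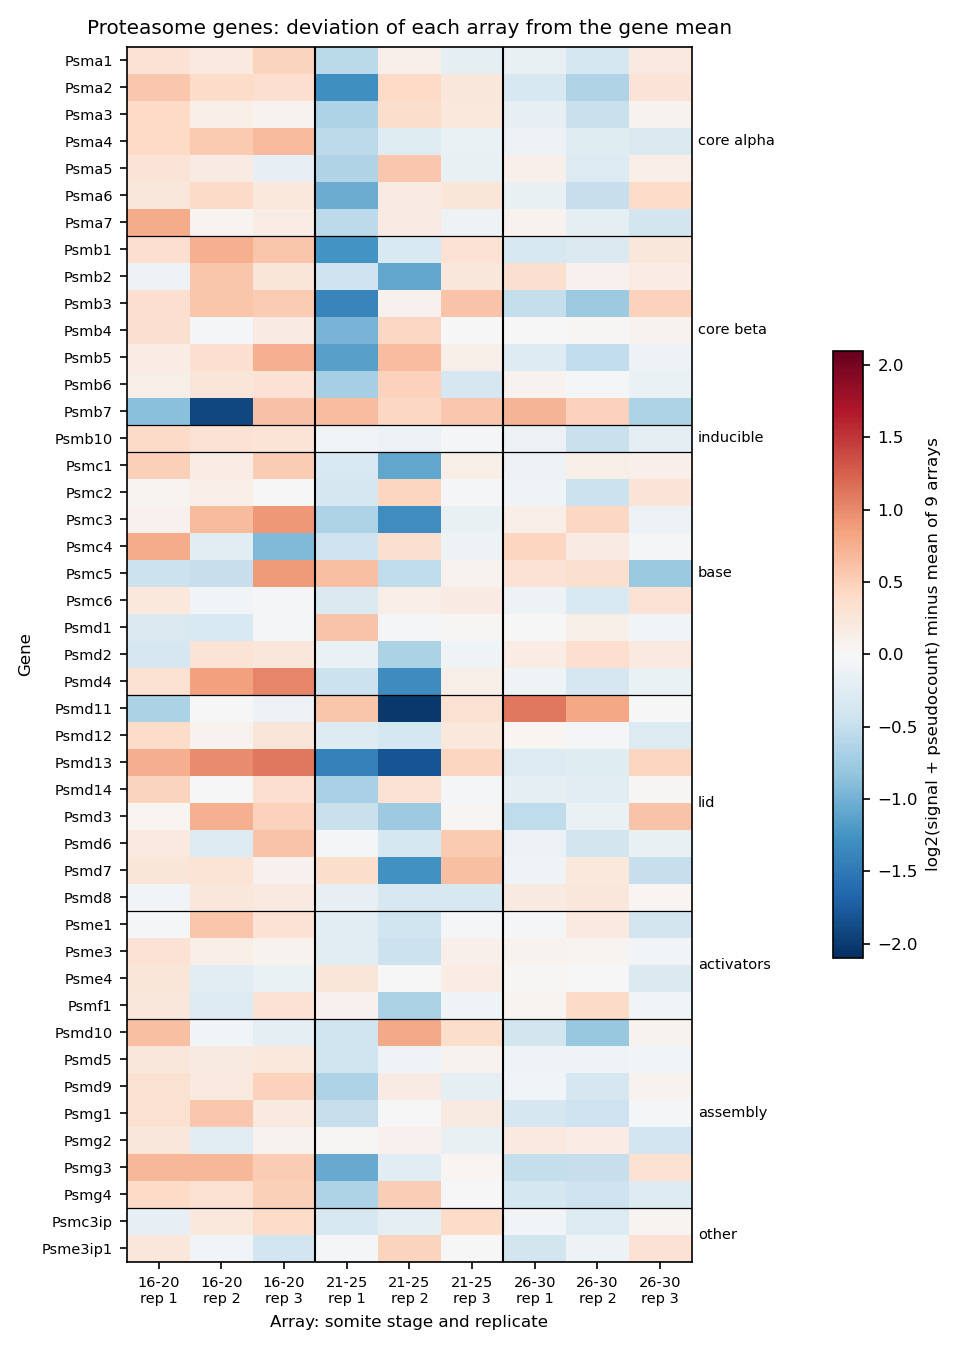
Each row is a tested proteasome gene and each column an array, in stage order; the colour is log2(signal + pseudocount) minus the gene's mean over the 9 arrays, red above and blue below, and black lines part roles and stages. The column of replicate 1 at 21-25 somites is blue through the core rows (12 of 14 lowest there), and that of replicate 2 through many base and lid rows (9 of 17 lowest there).

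**Figure D4:**
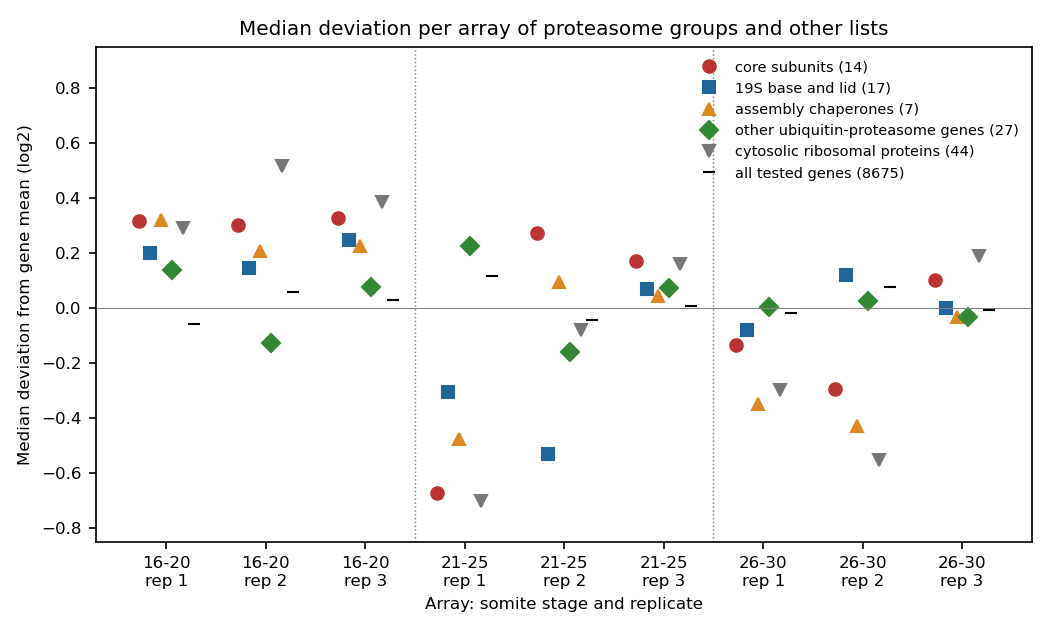
Median deviation from the gene mean (log2) on each array for the core subunits, the base and lid subunits, the assembly chaperones, other ubiquitin-proteasome genes, cytosolic ribosomal protein genes and all tested genes; symbols at one array are set side by side and the number of genes stands in the legend. On replicate 1 at 21-25 somites the core and the ribosomal proteins are at -0.67 and -0.70, and on replicate 2 the base and lid are at -0.53 while the core is at 0.27.

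Fits that weight each array by how well it matched the model gave calls. With such array weights, 731 of 8675 genes (8.43%) were called at 26-30 against 16-20 somites, 3.65% with lower signals. They included 6 proteasome genes, all lower at 26-30 somites: Psma4 at -0.76 (adjusted p 0.0204), Psmg3 at -1.01 (0.0245), Psmg4 at -0.82 (0.0245), Psmd4 at -0.999 (0.0282), Psmb5 at -0.84 (0.0447) and Psmg1 at -0.64 (0.0447), all in limma. These are 3 assembly chaperones, 2 core subunits and 1 ubiquitin receptor. The weights of replicates 1 and 2 at 21-25 somites were the lowest, 0.402 and 0.335, and that of replicate 1 at 26-30 somites the highest, 3.38. At 26-30 somites replicate 2 had 1.34 and replicate 3 had 0.671. Replicates 1 and 2, both of narrow range, thus carried most of the weight at that stage. The part of that range in these calls was not tested.

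The other genes of the ubiquitin-proteasome pathway that were measured had no common direction as a list. Of 38 listed, 27 had a single-symbol probe set and all 27 passed the filter. The others, among them all the listed ubiquitin genes and E1 enzymes, were not analysed here. The median log2 difference of the 27 at 26-30 against 16-20 somites was 0.03, with 13 below 0 and 14 above, and 0 were called in limma. The lowest was Pomp, the chaperone that matures the core, which read 1860.5, 2921 and 1489 at 16-20 somites, 713, 487 and 1677 at 21-25 somites, and 802, 832 and 1256 at 26-30 somites. Its signals at 26-30 somites were wholly below those at 16-20 somites, and the log2 difference was -1.07 ± 0.40 (SE), adjusted p 0.372 in limma. Next came Sem1, a small lid subunit whose symbol the rule does not match, at -0.83 ± 0.42, and Nsfl1c, a cofactor of the unfoldase Vcp, at -0.59 ± 0.47. All 6 genes of the Vcp complex were below 0, with a median of -0.40 and 0 called. At the other end, Ube3a, a ubiquitin ligase that binds the proteasome, had 1.15 ± 0.67, Zfand2a, a stress-induced proteasome adaptor, had 0.76 ± 0.28 and Akirin2, which carries proteasomes into the nucleus, had 0.51 ± 0.25. Zfand2a was wholly higher at 26-30 than at 16-20 somites, beside 11.2% of all genes. The signals of Ube3a and Akirin2, and of Sem1 and Nsfl1c, overlapped between these stages. The regulator Nfe2l1 had -0.26 ± 0.30 and the related Nfe2l2 had 0.19 ± 0.28.

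Other large complexes made by all cells also had medians below 0 at both later stages against 16-20 somites. At 26-30 against 16-20 somites the median log2 difference was -0.58 for 44 cytosolic ribosomal protein genes, -0.43 for 76 respiratory chain genes and -0.30 for the 8 subunits of the chaperonin CCT, beside -0.35 for the 45 proteasome genes. At 21-25 against 16-20 somites the medians were -0.56, -0.40 and -0.30, beside -0.40. Between 26-30 and 21-25 somites they were -0.00, 0.04 and -0.05, beside 0.05. The differences between these lists and the proteasome genes were not tested.

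Promoter sequence was available for 40 of the 48 genes, from RefSeq on GRCm38.p6, as the 250 bases before the annotated start. Both strands were searched for the core of the antioxidant response element (TGACNNNGC), the motif of the Nfe2l1 and Nfe2l2 family, for the CCAAT box (CCAAT), for the site of Nrf1, the nuclear respiratory factor, and for the ETS core (CCGGAAG). Psma6, Psmc2 and Psme3ip1 had more than 1 window, and a gene was counted once if any of its windows matched. The 40 genes include Psmc3ip, which holds the ETS core and a CCAAT box, and Psme3ip1, which holds a CCAAT box. The antioxidant core was found in 5 of 40 genes (12.5%), beside 13.9% of the 7051 tested genes with a window, and the CCAAT box in 15 (37.5%), beside 40.6%. The nuclear respiratory factor site was found in 6 (15.0%), beside 9.63%, and the ETS core in 13 (32.5%), beside 15.8%; over all 27025 genes with a window the ETS share was 7.83%. A match is a string of letters and not a shown binding site. The windows below belong to Psmd13, the gene with the largest difference, and to Psmd4, Psmg1 and Psmb5. The last 3 were called with array weights and hold a match, and Psmd4 and Psmg1 share the ETS core. Psma4, also called with array weights, holds the nuclear respiratory factor site, and its window is not printed. Psmg3 and Psmg4, called as well, hold no match. The windows printed run 5′ to 3′ on the gene's strand, with the matches in capitals and no match overlapping another.
Psmd13, chr7:140882144-140882393, plus strand, no match: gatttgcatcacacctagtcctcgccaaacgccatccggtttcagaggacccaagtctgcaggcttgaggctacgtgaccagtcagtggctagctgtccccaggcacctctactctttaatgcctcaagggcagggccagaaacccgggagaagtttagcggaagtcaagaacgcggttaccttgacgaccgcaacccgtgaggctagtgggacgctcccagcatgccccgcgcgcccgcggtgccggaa
Psmd4, chr3:95042615-95042864, minus strand, the ETS core and a CCAAT box on the other strand: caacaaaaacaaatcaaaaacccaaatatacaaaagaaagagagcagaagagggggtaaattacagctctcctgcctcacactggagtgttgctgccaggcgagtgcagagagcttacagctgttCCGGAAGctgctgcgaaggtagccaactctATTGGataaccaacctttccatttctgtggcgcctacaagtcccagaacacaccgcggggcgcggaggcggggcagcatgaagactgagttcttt
Psmg1, chr16:95990961-95991210, minus strand, the ETS core: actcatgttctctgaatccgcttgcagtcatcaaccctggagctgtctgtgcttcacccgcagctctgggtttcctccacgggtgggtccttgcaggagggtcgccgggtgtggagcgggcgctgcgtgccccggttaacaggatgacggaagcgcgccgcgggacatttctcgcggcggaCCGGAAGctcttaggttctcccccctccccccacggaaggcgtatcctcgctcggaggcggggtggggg
Psmb5, chr14:54617996-54618245, minus strand, the antioxidant core: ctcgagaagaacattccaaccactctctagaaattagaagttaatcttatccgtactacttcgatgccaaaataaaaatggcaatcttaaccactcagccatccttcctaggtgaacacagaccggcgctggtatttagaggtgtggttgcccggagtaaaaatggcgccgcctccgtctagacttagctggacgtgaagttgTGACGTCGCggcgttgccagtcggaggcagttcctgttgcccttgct
The 4 genes had log2 differences of -0.98, -0.93, -0.63 and -0.72 at 26-30 against 16-20 somites, in the same order.

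Probe sets of one gene did not always share a sign. More than one probe set passed the filter for 17 of the 45 genes. Opposite signs were seen among them for 8 genes at 26-30 against 16-20 somites, in 9 at 21-25 against 16-20 somites and in 10 at 26-30 against 21-25 somites. The 8 were Psmb4, Psmc4, Psmc6, Psmd4, Psmd9, Psmd11, Psme4 and Psmg2. The 9 were Psma6, Psmb4, Psmc4, Psmc6, Psmd6, Psmd9, Psmd11, Psmf1 and Psmg2. Psma5, by contrast, kept its sign at -0.10 and -0.79 in its probe sets. Tested one by one, 0 of 12685 probe sets were called in any of the 3 comparisons in limma, and 1372, 1318 and 467 had an unadjusted p under 0.05.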

How the data were processed

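RNA of 5 to 10 pooled mid-foreguts per array was measured in 9 samples, 3 at each of 3 somite stages. Per the labels' protocols, 100 ng of total RNA passed through 2 rounds of amplification. The deposited intensity values were made by the authors with MAS5, as the submitters' processing notes state. The scaling target, detection calls and software version are not given in the sources used. Of 22690 probe sets, 64 were controls, and the platform table named 1 gene symbol for 20380, several for 691 and none for the other 1555. Only probe sets with 1 symbol were used, and 20351 of their gene identifiers matched RefSeq, with 0 symbols changed.

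Intensities were taken to log2 after adding 26.1, the 20th percentile of all values, with no further normalization. The filter was the 30th percentile of gene means (6.66), which kept 8675 genes. All 9 arrays entered 1 fit of stage means with limma 3.58.1 in R 4.3.3 (lmFit, eBayes with a trend), and two-sided p-values were adjusted by Benjamini-Hochberg over all genes. Folds are on the log2(signal + 26.1) scale, which understates changes of dim genes. The number of arrays limits the precision.

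Genes given in full were the 3 highest and 3 lowest in each comparison, those called in any fit, the catalytic and inducible beta subunits and the activators. Of the other pathway genes, the 3 highest and 3 lowest at 26-30 against 16-20 somites were named, with array values for Pomp alone. Other genes named, among them the subunits given as means and Nfe2l1 and Nfe2l2, were chosen after their values were seen. The members and lists were chosen with earlier results of these data known. Same-numbered arrays did not deviate together (correlations of -0.28 to 0.26), so the numbers were not taken as pairs. The alternatives covered the pseudocount, the filter, quantile normalization, array weights, a replicate block, the probe set rule and the arrays in the fit; 2 kinds were added after the data were seen.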

Additional observations from a re-analysis of the deposited data

How the results depend on the processing

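Over the 23 alternative settings run for them, on each gene's own tested value, 22 of 27 named log2 differences of proteasome genes did not reverse; filtering at the 50th percentile left 25 of the 27. The fit of every probe set on its own was run for the counts only, and probe sets of opposite sign are named in the results. The count of called genes, 0 of 8675 in each comparison, became 731 at 26-30 against 16-20, 29 at 26-30 against 21-25 somites and 339 for any stage difference with array weights; 4 at 26-30 against 16-20 somites with only the 6 arrays of both stages; 1 at 26-30 against 16-20, 1 at 21-25 against 16-20 somites and 1 for any difference with the 99th percentile as a covariate; and 1 at 21-25 against 16-20 somites without the 3 narrow-range arrays. Leaving out 1 array gave 0 to 1 at 26-30 against 16-20, 0 to 3 at 21-25 against 16-20 somites, 0 to 3 for the difference between the steps and 0 to 2 for any difference. Without replicates 1 and 2 at 21-25 somites, a setting chosen after seeing the data, the counts were 4 at 26-30 against 16-20 and 1 in each of the other 4. Fitting the replicate number as a block left all counts at 0, with 989, 967 and 317 genes at an unadjusted p under 0.05 in limma, beside 967, 960 and 353 without it.

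The members' median at 21-25 against 16-20 somites was -0.22 with array weights, -0.22 without the narrow-range arrays, -0.47 to -0.22 when 1 array was left out and -0.17 without replicates 1 and 2 at 21-25 somites, which also gave -0.11 at 26-30 against 21-25 somites. That last median also ran over -0.099 to 0.18 when 1 array was left out. The members' median at 26-30 against 16-20 somites was -0.18 with the 99th percentile as a covariate. Psmd13 at 26-30 against 21-25 somites turned from 0.90 to -0.22 with array weights and -0.48 without replicates 1 and 2 at 21-25 somites. Psmb7 in that step was -0.37 in the main fit. It ran over -0.64 to 0.0467 when 1 array was left out, reversing without replicate 3 at 26-30 somites. At 26-30 against 16-20 somites, Psmc4 ran over -0.0784 to 0.77 when 1 array was left out, reversing without replicate 3 at 16-20 somites, and Psme3 to 0.33 with the mean of probe sets. Psme4 turned to 0.00752 with quantile normalization, 0.0578 with array weights and 0.063 with the mean of probe sets, and ran over -0.15 to 0.096 when 1 array was left out, reversing without replicate 1 at 16-20 or replicate 3 at 26-30 somites. The cause was not tested.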
